A study of Mus musculus with 91 samples.

Results

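*Pde9a*, the natriuretic peptide receptors and the main enzymes that make, break down or respond to cyclic GMP (cGMP) were followed across 91 single layer 5 (L5) pyramidal neurons of the mouse primary visual cortex (V1). The 9 genes were *Pde9a*, *Npr1*, *Npr2*, *Npr3*, *Pde1a*, *Pde2a*, *Pde5a*, *Prkg1* and *Prkg2*, out of 34745 rows in the deposited count table. They were chosen from the pathway, with *Pde9a* and *Npr3* picked because earlier results of these data had shown both mostly in one of the types compared. Detection and level by type are therefore descriptions here. The neurons came from slices of wild-type adult mice and were collected by Patch-seq, in which a neuron is recorded with a patch pipette and its contents are then aspirated for RNA sequencing. The labels name 47 neurons Pyr <-- LP (Pyr←LP, the type driven by the thalamic lateral posterior nucleus) and 44 Pyr <-- ORBvl (Pyr←ORBvl, the type driven by the ventrolateral orbitofrontal cortex). In these recordings the type was assigned from the size of the hyperpolarization-activated current Ih by a trained classifier and not from the inputs themselves, and both types were recorded from the same kind of mice with no treatment that differed between them.

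cGMP is a second messenger made by guanylyl cyclases. Soluble cyclases respond to nitric oxide, and the membrane receptors encoded by *Npr1* and *Npr2* are cyclases that respond to natriuretic peptides. *Npr3* encodes a natriuretic receptor without a cyclase domain, known for clearing the peptides by taking them into the cell. Phosphodiesterases end the signal: PDE9A has a high affinity for cGMP and little activity on cAMP, PDE5A is also selective for cGMP, PDE1A is switched on by calcium and calmodulin, and PDE2A is stimulated by cGMP and breaks down both nucleotides. The kinases encoded by *Prkg1* and *Prkg2* phosphorylate proteins when cGMP binds them.

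Total counts per neuron ran from 2410 to 1948982 (median 423999), with medians of 411884 in Pyr←LP and 445008 in Pyr←ORBvl neurons, and 72 of the 91 neurons had at least 100000. Medians of 3241 and 3980.5 genes were detected. The pan-neuronal *Snap25* had counts in all 91 neurons and the excitatory marker *Slc17a7* in 35 of 47 Pyr←LP and 36 of 44 Pyr←ORBvl neurons. The L5 marker *Fezf2* was detected in 20 and 32 neurons and *Slc30a3*, a marker of neurons that project within the cortex, in 26 and 9. GABAergic markers (*Slc32a1*, *Gad1* and *Gad2*) had a count in 12 and 13 neurons, oligodendrocyte markers in 45 and 44, microglial markers in 39 and 41, and astrocyte markers in 17 and 14. The summed log2(count + 1) of the GABAergic markers exceeded 7, the study's limit for keeping a neuron, in 3 Pyr←LP and 5 Pyr←ORBvl neurons. Neurons 5 and 11 of Pyr←ORBvl, recorded under different prefixes, had nearly the same profile. Their log2(CPM + 1), where CPM are counts per 1000000 of the neuron's total, correlated at r = 0.991 over the filtered genes. The next closest pair stood at 0.509, and the median over all pairs was 0.24. They shared 3723 genes, 86.6% and 93.6% of those detected in each. The labels name them as separate neurons, and they were kept as such, but they may share cDNA or a library, which was not tested. The counts of neurons 5 and 11 differed by more than counting error (chi-square of 3.38 per degree of freedom). Detection and co-detection are also given with the pair averaged or with neuron 11 left out. Both have *Pde9a*, *Npr3* and *Pde2a* counts.

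No test between the types was made, because the labels do not say which neurons came from the same mouse and the genes were picked with this contrast known. Differences are given with the spread over neurons, and shares with exact 95% binomial intervals that cover counting error only. A neuron without a count may hold a transcript that was lost in the aspirate or in amplification. The number of cDNA molecules behind a count is not known, as the protocol counts reads.

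*Pde9a* had at least 1 count in 20 of 44 Pyr←ORBvl neurons (45.5%, interval 30.4 to 61.2%) and in 5 of 47 Pyr←LP neurons (10.6%, 3.55 to 23.1%), a gap of 34.8 percentage points. *Npr3* was found in 16 of 44 (36.4%, 22.4 to 52.2%) and 2 of 47 (4.26%, 0.52 to 14.5%), a gap of 32.1 points. *Pde1a* was the most widely detected of the 9 genes in both types, in 38 of 44 and 34 of 47 neurons. *Pde2a* was present in about equal shares, 18 of 44 (40.9%) and 17 of 47 (36.2%). *Pde5a* had no count in any of the 91 neurons, which allows a share of up to 3.3% (3 of 91; exact upper limit 3.97%). Of the other members, *Npr1*, *Npr2*, *Prkg1* and *Prkg2* each had counts in 9 or fewer neurons.

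**Figure D1:**
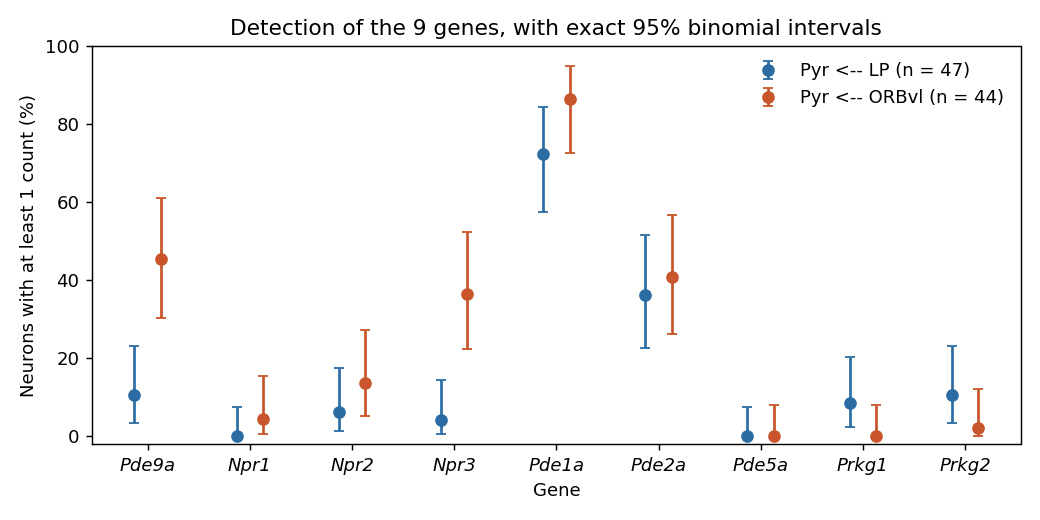
Share of neurons with at least 1 count of each gene, in percent, for 47 Pyr←LP (blue) and 44 Pyr←ORBvl (orange) neurons, with exact 95% binomial intervals as bars. *Pde9a* stands at 45.5% and 10.6% and *Npr3* at 36.4% and 4.26% in Pyr←ORBvl and Pyr←LP, the contrast both were picked for, and *Pde1a* is the highest in both types.

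Only 4 of the 9 genes passed the study's filter of at least 5 counts in at least 10 neurons: *Pde9a*, *Npr3*, *Pde1a* and *Pde2a*. Among all 8267 genes that passed it, the share of neurons with a count was at least 20 points higher in Pyr←ORBvl for 6.39% and at least 20 points higher in Pyr←LP for 1.11%. *Pde9a* and *Npr3* were past this size in Pyr←ORBvl and no member in Pyr←LP, and 24 and 46 of the 8267 genes had a larger gap than *Pde9a* and *Npr3*. Mean CPM was at least 2-fold higher in Pyr←ORBvl for 15.5% of these genes and at least 2-fold higher in Pyr←LP for 13.3%. *Pde9a*, *Npr3* and *Pde2a* were past that size in Pyr←ORBvl and none of the 4 in Pyr←LP. As *Pde9a* and *Npr3* were picked for this contrast, nothing is read from these counts. The median over the 8267 genes was a gap of 4.01 points and a log2 ratio of 0.05, and 66.4% of them had a higher share in Pyr←ORBvl.

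*Pde9a* (chromosome 17, 31386105 to 31476309 in GRCm38) encodes the cGMP-selective enzyme. Its level in Pyr←ORBvl neurons ran from 0 to 973 CPM (median 0, mean 140 ± 230, SD, n = 44), and in Pyr←LP neurons from 0 to 295 CPM (median 0, mean 8.06 ± 43.5, SD, n = 47). The groups overlap at 0, and above it 12 Pyr←ORBvl neurons and 1 Pyr←LP neuron exceeded 250 CPM. The mean was 17.4-fold higher in Pyr←ORBvl. Among Pyr←ORBvl neurons with a count, 15 had at least 5 counts and 5 had 1 to 4. The highest counts were 623 in neuron 20, 579 in neuron 3, 519 in neuron 31, 462 in neuron 11 and 452 in neuron 7.

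The 5 Pyr←LP neurons with *Pde9a* held 1, 1, 2, 57 and 125 counts. Both neurons with more than 2 counts, neuron 29 (125 counts) and neuron 34 (57 counts), also carried GABAergic transcripts, with marker sums of 15.1 and 13.6. Both had astrocyte markers (summed CPM of 637 and 762), against 15 of the other 45 Pyr←LP neurons, and 1 of them had endothelial and 1 pericyte or smooth muscle markers. The part of these transcripts in the result was not tested. Neuron 34 had the most detected genes of all, 11013. Neuron 29 alone made up 77.9% of the summed Pyr←LP CPM, and the ratio of means was 76.8-fold without it. Without Pyr←ORBvl neuron 10, the highest of that type, it was 15-fold. When the study's limits were applied to the counts, 44 Pyr←LP and 39 Pyr←ORBvl neurons stayed. No neuron in the deposited table had a total under the study's minimum of 500 counts, so the set of neurons the study kept was not rebuilt here. *Pde9a* was then detected in 3 of 44 (6.82%) and 17 of 39 (43.6%), with at least 5 counts in 0 and 12 neurons. Without Pyr←ORBvl neurons above the limit, such as neuron 3 (marker sum 14.8), the mean in that type was 122 CPM. In Pyr←ORBvl, 3 of the 15 neurons with at least 5 *Pde9a* counts and 2 of the other 29 were above the limit.

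*Npr3* (chromosome 15, 11839896 to 11907837) encodes the clearance receptor. It ran from 0 to 543 CPM in Pyr←ORBvl (median 0, mean 53.9 ± 121, SD, n = 44) and from 0 to 18.6 CPM in Pyr←LP (median 0, mean 0.586 ± 2.99, SD, n = 47). The 2 Pyr←LP neurons held 8 and 11 counts, 8.94 and 18.6 CPM. In Pyr←ORBvl, 12 neurons had 14 or more counts and 4 had a single count. The highest were 588 in neuron 9, 299 in neuron 42, 252 in neuron 35 and 160 in neuron 4. The ratio of means was 92.0-fold, 277-fold without Pyr←LP neuron 10 and 72.6-fold without Pyr←ORBvl neuron 9. Neither Pyr←LP neuron was above the GABAergic limit, and under that limit *Npr3* was detected in 2 of 44 (4.55%) and 13 of 39 (33.3%) neurons.

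**Figure D2:**
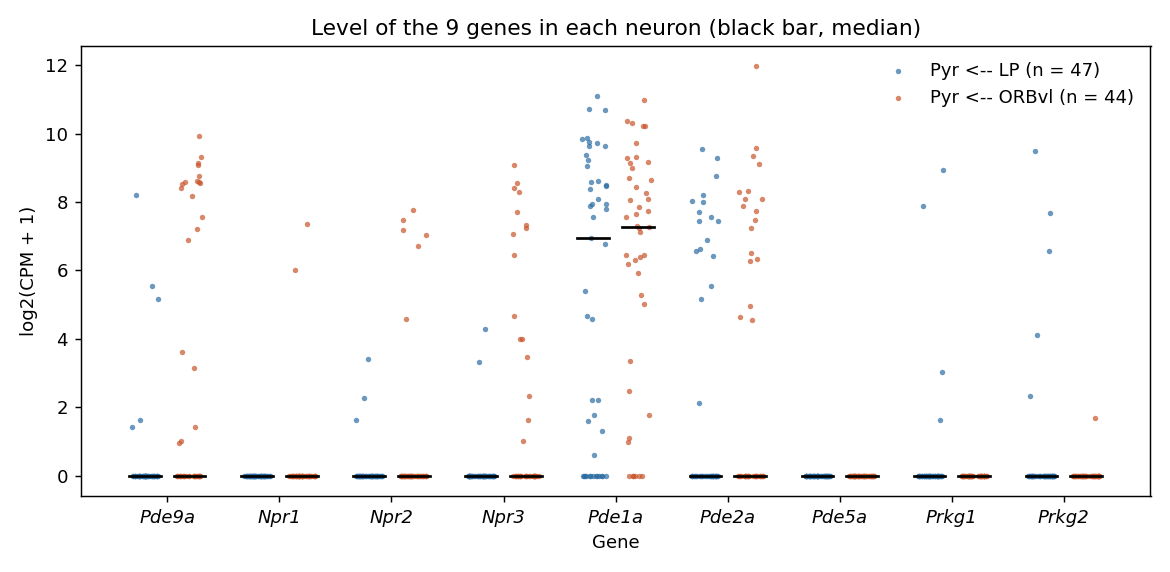
Level of the 9 genes in each neuron as log2(CPM + 1), with Pyr←LP neurons in blue (n = 47), Pyr←ORBvl neurons in orange (n = 44) and the median of each group as a black bar. The median is 0 for every gene other than *Pde1a*, and 20 of the 25 neurons above 0 for *Pde9a* and 16 of the 18 for *Npr3* are Pyr←ORBvl.

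Depth differed between neurons with and without these transcripts. In Pyr←ORBvl, neurons with a *Pde9a* count had a median total of 827396 and those without one 214316, and the values for *Npr3* were 782734 and 286231. In Pyr←LP the medians were 480742 and 360060 for *Pde9a*. With the 38 Pyr←LP and 34 Pyr←ORBvl neurons of at least 100000 counts thinned to 100000 each, *Pde9a* was detected in 5.26% and 41.2% and *Npr3* in 2.63% and 32.4%, so that the gaps, 35.9 and 29.7 points, were about as large at 1 depth as at full depth. With the near-identical pair averaged they were 33.5 and 30.6 points.

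Neuron titles begin with a number, here called the recording prefix, whose meaning the labels do not give. Some titles write it with a hyphen and some without, and both forms were taken as the same prefix. This joined neurons under 822, 823 and 826. Prefix 826 holds both types only through this joining. Its 1 Pyr←LP neuron had counts of *Pde9a* and *Npr3*, and its 1 Pyr←ORBvl neuron had neither. There were 17 prefixes after joining, 14 with both types. *Pde9a* had a higher share in Pyr←ORBvl in 9 of these 14, a higher share in Pyr←LP in 3 and no count in 2. For *Npr3* the numbers were 8, 2 and 4. The mean gap within prefixes was 23.0 points for *Pde9a* and 17.6 points for *Npr3*, the latter under 20. Prefixes 822 and 823 held 8 of the 20 Pyr←ORBvl neurons with *Pde9a* (4 of 4 and 4 of 5) and 6 of the 16 with *Npr3*. Across 15 prefixes with Pyr←ORBvl neurons, 10 had *Pde9a* and 9 had *Npr3*. In prefix 913, 1 of those 3 where *Pde9a* went the other way, it had counts in 2 of 5 Pyr←LP and 0 of 2 Pyr←ORBvl neurons.

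**Figure D3:**
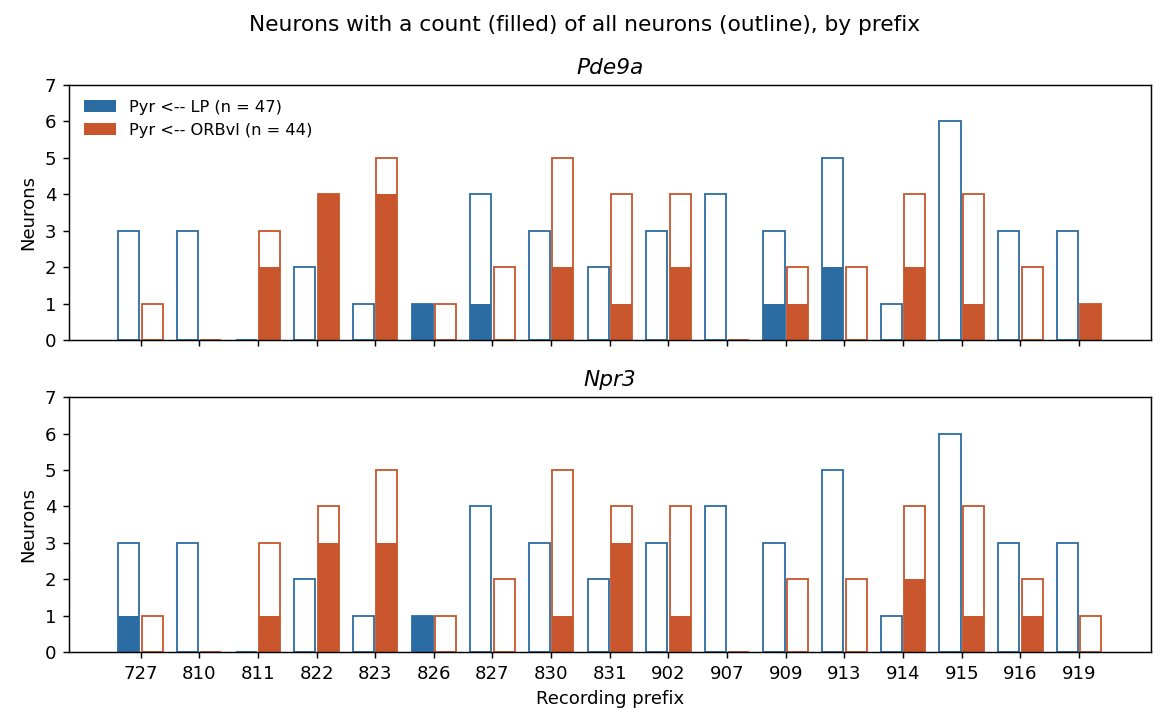
Number of neurons with a *Pde9a* count (top) or an *Npr3* count (bottom) as filled bars within all neurons of the type as outlines, by recording prefix, with Pyr←LP in blue and Pyr←ORBvl in orange. *Pde9a* was found in every Pyr←ORBvl neuron of prefix 822, and counts in Pyr←LP neurons came from 4 prefixes for *Pde9a* and 2 for *Npr3*.

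How far *Pde9a* and *Npr3* shared Pyr←ORBvl neurons depended on the count required. With any count, 9 of the 44 neurons had both, 11 had *Pde9a* alone and 7 had *Npr3* alone. At the higher limit, 15 had at least 5 *Pde9a* counts, 12 had at least 5 *Npr3* counts and 3 had both, 20% of the *Pde9a* set and 25% of the *Npr3* set. With the near-identical pair averaged they were 14, 11 and 2 of 43, and 8 neurons had any count of both. Those 3 were neuron 8 (234 *Pde9a* and 59 *Npr3* counts) and the near-identical neurons 5 (390 and 15) and 11 (462 and 16). The other 9 *Npr3* neurons held 0 to 2 *Pde9a* counts, among them neuron 9, with 588 *Npr3* counts and 1 *Pde9a* count, and neuron 42, with 299 and 0. The other 12 *Pde9a* neurons held 0 or 1 *Npr3* counts, among them neuron 20, with 623 *Pde9a* counts and 0 of *Npr3*. *Npr3* reached 5 counts in 9 of the 29 neurons with fewer than 5 *Pde9a* counts (31%, 15.3 to 50.8%), against 20% (4.33 to 48.1%) of the 15 others, and these intervals overlap. With any count the shares went the other way. With neurons 5 and 11 averaged, *Npr3* was then in 42.1% of 19 neurons with *Pde9a* and 29.2% of 24 without. Across the 44 neurons log2(CPM + 1) of the 2 genes correlated at r = -0.17, and at -0.20 without neuron 11. The thinned set of 34 gave r = -0.21. In all, 24 of 44 Pyr←ORBvl neurons had at least 5 counts of one or the other, and 27 had any count, against 6 of 47 Pyr←LP neurons.

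**Figure D4:**
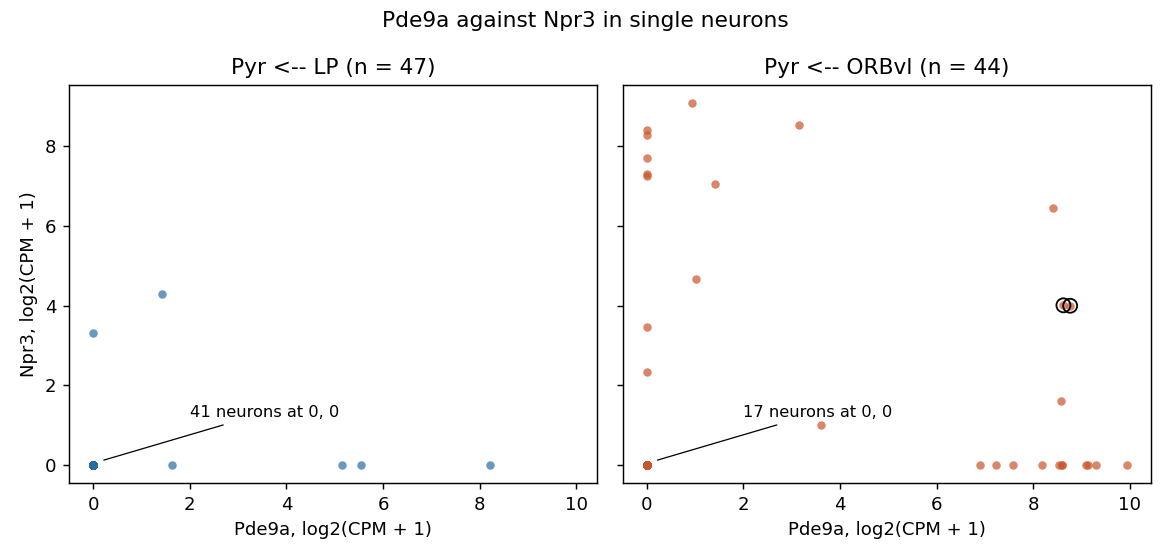
*Npr3* against *Pde9a* in each neuron as log2(CPM + 1), Pyr←LP on the left (n = 47) and Pyr←ORBvl on the right (n = 44), with the near-identical neurons 5 and 11 circled. In Pyr←ORBvl 17 neurons lie at 0 for both genes, 11 along the *Pde9a* axis, 7 along the *Npr3* axis and 9 off the axes, 3 of these with at least 5 counts of both.

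The membrane cyclase receptors were rare. *Npr1* (chromosome 3, 90450591 to 90465928), the receptor for atrial and B-type natriuretic peptide, had counts in Pyr←ORBvl neurons 26 (16 counts, 162 CPM) and 21 (8 counts, 63.5 CPM) and in none of 47 Pyr←LP neurons, which allows a share of up to 6.38% (3 of 47; exact upper limit 7.55%). Neuron 26, with 71.8% of the summed *Npr1* CPM, had a GABAergic marker sum of 8, above the study's limit, and neuron 21 had a sum of 0. Under that limit *Npr1* was detected in 1 of 39 Pyr←ORBvl neurons, and its mean level was 1.63 CPM in place of 5.12 CPM. The part of these markers in the result was not tested. *Npr2* (chromosome 4, 43629015 to 43651437), the receptor for C-type natriuretic peptide, had counts in 6 Pyr←ORBvl neurons (13.6%, 5.17 to 27.4%) and 3 Pyr←LP neurons (6.38%, 1.34 to 17.5%). The 6 held 8, 18, 32, 71, 129 and 262 counts and the 3 held 1, 1 and 12. Mean *Npr2* levels were 18.2 ± 51.5 and 0.331 ± 1.53 CPM (SD). The gap in shares was 7.25 points, and the ratio of means rests on few neurons: 54.8-fold with all of them, 141-fold without Pyr←LP neuron 14 and 40.8-fold without Pyr←ORBvl neuron 4. GABAergic markers had counts in 5 of the 6 Pyr←ORBvl neurons (summed CPM of 0 to 363, median 36.8) and in 8 of the other 38 (0 to 906, median 0), and their part in the result was not tested. *Spag8* overlaps *Npr2* in RefSeq and was counted in 4 neurons, 2 of which had *Npr2* counts. Of the 12 Pyr←ORBvl neurons with at least 5 *Npr3* counts, 3 also reached 5 counts of *Npr2* and 1 of *Npr1*.

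*Pde1a* (chromosome 2, 79834453 to 80196522) was detected in 86.4% of Pyr←ORBvl (72.6 to 94.8%) and 72.3% of Pyr←LP neurons (57.4 to 84.4%), a gap of 14 points. It ran from 0 to 2015 CPM in Pyr←ORBvl (median 154, mean 334 ± 450, SD) and from 0 to 2207 CPM in Pyr←LP (median 123, mean 342 ± 501, SD). The types overlap along the whole range. The log2 ratio of means was -0.03, whereas the mean of log2(CPM + 1), which gives neurons at 0 more weight, was 1.01 higher in Pyr←ORBvl.

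*Pde2a* (chromosome 7, 101421691 to 101512829) was at least 5 counts deep in 15 Pyr←ORBvl and 16 Pyr←LP neurons. It ran from 0 to 3994 CPM in Pyr←ORBvl (median 0, mean 187 ± 614, SD) and from 0 to 753 CPM in Pyr←LP (median 0, mean 81.9 ± 164, SD). The 2.28-fold ratio of means fell to 1.2-fold without Pyr←ORBvl neuron 16, which alone made up 48.6% of the summed CPM of its type. Without neuron 16 the means were 98.2 and 81.9 CPM.

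Single neurons combined the phosphodiesterases in different ways. Of the 15 Pyr←ORBvl neurons with at least 5 *Pde9a* counts, 14 (93.3%, 68.1 to 99.8%) also had at least 5 *Pde1a* counts, against 16 of the other 29 (55.2%, 35.7 to 73.6%), with overlapping intervals. The median totals of these sets were 822986 and 249106 counts. Thinned to 100000 counts, *Pde1a* was present in 13 of 14 neurons with *Pde9a* and 14 of 20 without (92.9% and 70.0%). With the pair averaged the shares at 5 counts were 13 of 14 and 16 of 29, and in the thinned set without neuron 11 they were 12 of 13 and 14 of 20. The correlation of *Pde9a* with *Pde1a* over 44 Pyr←ORBvl neurons was r = 0.48, which placed *Pde1a* 17th of 8265 genes, and r = 0.45 in the thinned set. Over all 91 neurons it was 0.25, 381st of 8266 genes. For *Pde2a* and *Npr3* in Pyr←ORBvl, 8 of 12 *Npr3* neurons (66.7%, 34.9 to 90.1%) reached 5 *Pde2a* counts against 7 of the other 32 (21.9%, 9.28 to 40%), also with overlapping intervals. After thinning, *Pde2a* was present in 9 of 11 neurons with *Npr3* and 3 of 23 without (81.8% and 13%), with r = 0.48. At full depth r was 0.34 over the 44 Pyr←ORBvl neurons (433rd of 8265 genes for likeness to *Npr3*) and 0.26 over all 91. With the pair averaged the shares at 5 counts were 7 of 11 and 7 of 32, and in the thinned set without neuron 11 they were 8 of 10 and 3 of 23. For *Pde9a* and *Pde2a* the thinned shares were 35.7% and 35%. These correlations share the depth and amplification of each library, and the pairs were picked after their values were seen.

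The cGMP-dependent kinases had counts mostly in Pyr←LP neurons, and in few of them. *Prkg1* (chromosome 19, 30564487 to 31765268) had 135, 9, 1 and 1 counts in Pyr←LP neurons 5, 14, 13 and 16 and none in 44 Pyr←ORBvl neurons, which allows up to 6.82% (3 of 44; exact upper limit 8.04%). *Prkg2* (chromosome 5, 98929773 to 99037375) had 53, 26, 6, 5 and 3 counts in Pyr←LP neurons 4, 5, 43, 14 and 6 and 1 count in Pyr←ORBvl neuron 25. The shares in Pyr←LP were 8.51% (2.37 to 20.4%) and 10.6% (3.55 to 23.1%). Neurons 4, 5 and 6 make up prefix 810, which holds no Pyr←ORBvl neuron, so the type and the prefix cannot be told apart for those neurons. The highest *Prkg1* level, 486 CPM, was in neuron 5. The highest *Prkg2* level, 726 CPM, was in neuron 43 of prefix 916, from 6 counts out of 8269, and made up 69.6% of the summed Pyr←LP CPM. Within the 14 prefixes with both types, *Prkg1* was higher in Pyr←LP in 2 and *Prkg2* in 2, and *Prkg2* was higher in Pyr←ORBvl in 1. The gap in shares between the types was -8.37 points for *Prkg2* and -2.27 points without prefix 810, and -8.51 points for *Prkg1* and -4.65 points without the prefix of neurons 13 and 14 (Pyr←ORBvl minus Pyr←LP). Neurons 5 and 14 had at least 5 counts of both kinases. *Cstf2t*, which lies within *Prkg1*, was counted in 22 neurons, 1 of which had a *Prkg1* count.

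Levels of different genes were compared on FPKM, counts scaled to the length of the gene and the total of the neuron. In Pyr←ORBvl the order of the means was *Pde2a* at 32.3 ± 106, *Pde1a* at 28.4 ± 38.3 and *Pde9a* at 25.6 ± 42.1 (SD, n = 44). *Npr3* followed at 7.79 ± 17.5, then *Npr2* at 2.48 ± 7.04 and *Npr1* at 0.823 ± 4.18, with *Prkg2*, *Prkg1* and *Pde5a* at or near 0. Without neuron 16 *Pde2a* stood at 17 ± 31.6, below *Pde1a* and *Pde9a*, and without neuron 26 *Npr1* stood at 0.237. In Pyr←LP the order was *Pde1a* at 29.1 ± 42.7 and *Pde2a* at 14.2 ± 28.4, then *Prkg2* at 2.95 ± 14.6, *Prkg1* at 1.56 ± 7.83 and *Pde9a* at 1.47 ± 7.95 (SD, n = 47). *Npr3* and *Npr2* stood at 0.0847 ± 0.431 and 0.0452 ± 0.208, and *Npr1* and *Pde5a* were listed at 0. The places from *Prkg2* down rest on single neurons: *Prkg2* was at 0.917 without neuron 43, *Prkg1* at 0.537 without neuron 5, *Pde9a* at 0.333 without neuron 29, *Npr3* at 0.0281 without neuron 10 and *Npr2* at 0.0176 without neuron 14. In both orders each gene with a count differed from its neighbour by less than the larger of the SDs of the pair. These SDs are the spread over single neurons, not the error of a mean, and the orders were not tested. Among neurons with a count, median FPKM was 64.6 for *Pde9a*, 38.8 for *Pde2a*, 17.5 for *Pde1a* and 15.8 for *Npr3* in Pyr←ORBvl. *Pde9a* was in fewer of these neurons than *Pde1a*, and its median FPKM where found was higher.

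Marker lists were compared between Pyr←ORBvl neurons with at least 5 counts of *Pde9a* or *Npr3* and the others. Of the 15 Pyr←ORBvl neurons with at least 5 *Pde9a* counts, 14 had an L5 marker (*Fezf2* or *Bcl11b*), with summed CPM of 0 to 873 (median 361). In the other 29 the markers were in 22, at 0 to 1047 (median 109). The sets for *Npr3* were 11 of 12 (0 to 882, median 297) and 25 of 32 (0 to 1047, median 194). Oligodendrocyte markers had a median sum of 295 CPM (12.8 to 2510) in the *Pde9a* neurons and 1808 (2.81 to 23517) in the others, and for *Npr3* the medians were 1087 (182 to 6034) and 1775 (2.81 to 23517). GABAergic markers were in 5 of 15 and 8 of 29 for *Pde9a* and in 4 of 12 and 9 of 32 for *Npr3*. Microglial markers were in 14 of 15 and 27 of 29, and in 10 of 12 and 31 of 32. Astrocyte markers were in 4 of the 15 *Pde9a* neurons and 10 of the other 29. No astrocyte marker was found in the 12 *Npr3* neurons, and at least 1 was found in 14 of the other 32. Endothelial, pericyte and smooth muscle markers were at 0 in all 15 *Pde9a* neurons. Of the 12 *Npr3* neurons, 1 had endothelial markers and 0 had pericyte or smooth muscle markers. Pan-neuronal and excitatory markers had counts in all neurons of each set. Their part in the results was not tested.

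The genes most like *Pde9a* across the 44 Pyr←ORBvl neurons, by Pearson's r of log2(CPM + 1) among the filtered genes, were *9930014A18Rik* (r = 0.59), *Fam84b* (0.59), *Drg2* (0.55), *Tnpo3* (0.55) and *Fosb* (0.52). Over all 91 neurons their r was 0.58, 0.59, 0.33, 0.35 and 0.35, and without Pyr←ORBvl neuron 11 it was 0.57, 0.56, 0.52, 0.52 and 0.56 over 43. *Fam84b* was detected in 14 of 44 Pyr←ORBvl and 1 of 47 Pyr←LP neurons and *9930014A18Rik* in 11 and 2, while *Drg2*, *Tnpo3* and *Fosb* were found in similar numbers of both types. For *Npr3* they included *Fbxw8* (0.64), *Ccdc84* (0.62), *Numb* (0.58) and *Ocel1* (0.58), with 0.56, 0.46, 0.32 and 0.35 over all neurons and 0.65, 0.63, 0.60 and 0.58 without neuron 11. *Fbxw8* was detected in only 7 of 44 Pyr←ORBvl and 4 of 47 Pyr←LP neurons. *Ccdc84* was in 13 and 8, *Numb* in 16 and 18, and *Ocel1* in 11 and 15. *Npr3* ranked 7259th of 8265 genes for likeness to *Pde9a* over the Pyr←ORBvl neurons (r = -0.17) and 4352nd of 8266 over all 91 (r = 0.03).

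The rest of the pathway was read from a list of 38 genes, of which 24 had a count in any neuron, 9 in at least 10 neurons, and 7 passed the filter. Of the 7, *Gucy1b3* and *Pde6d* had mean CPM at least 2-fold higher in Pyr←ORBvl and *Pde1b* and *Pde10a* at least 2-fold higher in Pyr←LP, 2 of 7 each way beside the 15.5% and 13.3% of all filtered genes. None had a gap in shares of 20 points. The median gap was 0.87 points and the median log2 ratio 0.02, beside 4.01 points and 0.05 over the 8267 genes.

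Ligands were scarce. *Nppc*, which encodes C-type natriuretic peptide, had counts in 5 Pyr←ORBvl and 4 Pyr←LP neurons, with means of 18.2 and 14.1 CPM. *Nppb* had counts in 1 Pyr←LP neuron and *Nppa* and the protease *Corin* in none. *Furin*, a protease that processes peptide precursors, was detected in 6 Pyr←LP neurons and 1 Pyr←ORBvl neuron. *Nos1*, the neuronal nitric oxide synthase, had counts in 3 Pyr←LP neurons and 1 Pyr←ORBvl neuron.

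Of the 4 soluble cyclase subunits listed, 3 had counts, each in more Pyr←ORBvl than Pyr←LP neurons, a direction that 66.4% of all filtered genes share, and *Gucy1b2* had none. The beta subunit *Gucy1b3* (now *Gucy1b1*) was in 19 of 44 and 12 of 47 (17.6 points apart), with means of 54.4 and 17.8 CPM. The alpha subunits *Gucy1a2* and *Gucy1a3* (now *Gucy1a1*) were in 10 and 8 Pyr←ORBvl neurons and in 1 and 4 Pyr←LP neurons. Mean *Gucy1a2* was 30.8 and 1.29 CPM, and it missed the filter on low counts. Membrane cyclases other than the receptors were nearly absent: *Gucy2e* was in 2 neurons and *Gucy2g* in 2 of the 91, and *Gucy2c*, *Gucy2d* and *Gucy2f* in none.

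Other genes of the phosphodiesterase families lay on both sides. *Pde10a*, best known from striatal neurons, was in 21 Pyr←LP and 14 Pyr←ORBvl neurons, at means of 88.0 and 29.2 CPM. *Pde1b*, calcium-dependent like *Pde1a*, was in 13 and 7 neurons, at 66.5 and 14.2 CPM. *Pde6d*, whose product binds lipid-modified proteins, was in 11 and 15 neurons at 23.4 and 60.3 CPM. *Pde6h*, an inhibitory subunit, was in 20 and 18 neurons. *Rgs2*, a regulator of G-protein signalling that cGMP-dependent kinase can phosphorylate, was in 30 and 34 neurons, at 172 and 264 CPM, and *Vasp*, another substrate, was in 6 of each. Cyclic nucleotide-gated channel subunits were in at most 2 neurons of a type.

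Of 8 phosphodiesterases selective for cAMP, 7 had a count and 5 passed the filter. *Pde4d* was in 25 of 44 Pyr←ORBvl and 14 of 47 Pyr←LP neurons, 27.0 points apart, 1 of 5 past 20 points beside 6.39% of all filtered genes, with means of 82.6 and 66.7 CPM. *Pde4a* was in 29 neurons of each type and *Pde4b* in 24 and 22. None of the 5 had means 2-fold apart, beside 15.5% and 13.3% of all filtered genes, and none had a share 20 points higher in Pyr←LP (1.11% of all).

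**Figure D5:**
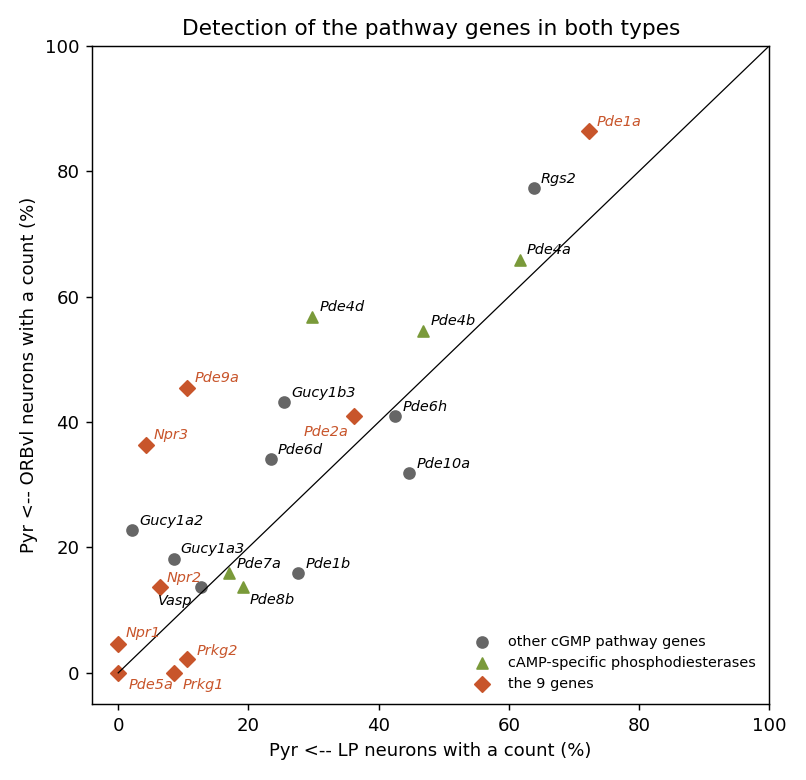
Share of Pyr←ORBvl neurons (vertical, %) against share of Pyr←LP neurons (horizontal, %) with a count, for the 9 genes (diamonds), other cGMP pathway genes in at least 10 neurons (circles) and cAMP-specific phosphodiesterases in at least 10 neurons (triangles), with equal shares as a line. *Pde9a* and *Npr3* lie farthest above the line, at 45.5% against 10.6% and 36.4% against 4.26%, and *Pde10a* and *Pde1b* lie below it.

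Of the 47 Pyr←LP neurons, 7 had no count of any of the 9 genes and 19 had a single gene, which was *Pde1a* in 15. Of the rest, 15 had 2 genes and 6 had 3 or more. Of the 44 Pyr←ORBvl neurons, 2 had none and 12 had a single gene, which was *Pde1a* in 9. Of the rest, 13 had 2 and 17 had 3 or more. The 9 genes include *Pde9a* and *Npr3*, both picked for detection mostly in Pyr←ORBvl.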

How the data were processed

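Single L5 pyramidal neurons of mouse V1 were sequenced with a Smart-seq2-based kit without molecular identifiers. The authors deposited counts per gene, not normalized: STAR 2.5.3 aligned the reads to GRCm38 in 2 passes, duplicates were dropped, and GenomicAlignments counted the reads with a unique alignment over each RefSeq gene. The strand setting is not given in the sources used here, so genes that overlap a member cannot be told apart from it with certainty. The authors also deposited FPKM values, which were 0 where the count was 0 and corresponded to 1 fixed length for each gene; the tool is not given in the sources used here. All 91 neurons were used, each with its deposited type label.

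The 9 genes, the lists and the rules were chosen with earlier results of these data known. The genes named are the 9 members, pathway and marker genes from fixed lists, and the 5 filtered genes with the highest Pearson's r to *Pde9a* and to *Npr3* over the Pyr←ORBvl neurons. Results for some of these genes are not reported here. A count was scaled to 1000000 per neuron to give CPM. Differences were called by size alone: mean CPM at least 2-fold apart, or shares at least 20 points apart, over genes that reached 5 counts in 10 or more neurons. Alternatives were the study's exclusion rule (at least 500 counts and a sum of log2(count + 1) of at most 7 over *Slc32a1*, *Gad1* and *Gad2*) on counts or on TPM rescaled from FPKM, thinning to 100000 counts, the near-identical pair averaged, each prefix left out, within-prefix means, a minimum of 5 counts, TMM-scaled CPM from edgeR 4.0.16 in R 4.3.3, FPKM, summed counts, mean log2(CPM + 1), other gene filters and larger sizes. Added after seeing the data were the exclusion rule with a minimum of 5 counts, leaving out the neuron with the highest CPM or FPKM of a member, and co-detection with the near-identical pair averaged or with 1 of the pair left out. The calculation of ratios and shares was run on simulated data with counting error only, without lost transcripts or uneven amplification. It therefore does not show how the rules behave on counts like these. Tables were made in Python 3.11.15 with pandas 2.3.3, scipy 1.17.1 and numpy 2.4.6, and plots with matplotlib 3.10.9. Positions are from the RefSeq annotation of GRCm38.p6. Protein sequences, electrophysiology and reads are not analysed here.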

Additional observations from a re-analysis of the deposited data

How the results depend on the processing

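The gap in shares between the types kept its direction for *Pde9a* and *Npr3* under every alternative, at 23.0 to 40.5 points for *Pde9a* and 17.6 to 35 points for *Npr3*, and was under 20 points only for *Npr3* averaged within prefixes (17.6). No other alternative value of a member's gap crossed the 20-point line. Only *Pde9a* and *Npr3*, both picked for this contrast, started past that line, so the other genes say little about stability. The *Pde2a* gap changed sign, from 4.74 points to -0.28 points without prefix 822 and also without prefix 831. The log2 ratio of *Pde1a* means changed from -0.03 to 1.01 as a difference of mean log2(CPM + 1), and *Pde2a* fell below 2-fold without the prefix of Pyr←ORBvl neuron 16 (0.25 on the log2 scale), without that neuron alone (0.26) and as a difference of mean log2(CPM + 1) (0.52). On that last scale *Npr2* (0.77) and *Prkg2* (-0.60) were also under 1.

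The number of genes past a size depends on the size and the filter. The 1281 genes with means 2-fold higher in Pyr←ORBvl became 846 after thinning, 5637 with no gene filter (18674 genes) and 361 at 4-fold. The 1101 higher in Pyr←LP became 5159 and 252 for the last 2. The 528 and 92 genes with shares 20 points higher in Pyr←ORBvl and in Pyr←LP became 80 and 16 at 30 points. With each prefix left out they ran from 458 to 822 and from 52 to 136, the values without prefix 913 being 822 and 52. The replicate numbers only name neurons and pair nothing. Pairing the types by recording prefix was possible in the 14 prefixes that hold both, and its values are the within-prefix gaps of 23.0 points for *Pde9a* and 17.6 for *Npr3*, with no test. Low counts of *Npr1*, *Prkg1* and *Prkg2* limit what can be said of them.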
